A study of Mus musculus with 12 samples.

Results

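Iron handling genes were followed in RNA-Seq of oligodendrocytes sorted from mouse brains. They are 10 genes of the 55376 gene symbols in the deposited count table, taken by symbol alone: Trf, Tfrc, Slc11a2, Fth1, Ftl1, Slc40a1, Cp, Hmox1, Aco1 and Ireb2. All 10 were found and all 10 passed the filter on low counts. O1+ cells, negative for the leukocyte marker CD45, were sorted by FACS at P40 (postnatal day 40), and each sample pooled the brains of 2 mice, whose strain the labels give as C57BL/6. There were 4 WT samples (replicates 1, 3, 5 and 6), 4 Cnp-Cre Jab1fl/fl samples (replicates 1 to 4) and 4 double mutant samples, Cnp-Cre Jab1fl/fl p21CIP1-/- (replicates 1, 2, 3 and 5). In the Cnp-Cre Jab1fl/fl mice a Cre recombinase expressed from the Cnp gene, which is active in the oligodendrocyte lineage and in Schwann cells, deletes a floxed Jab1, the gene listed as Cops5. The double mutants carry the same alleles and in addition lack p21CIP1 (Cdkn1a) in every cell of the body; the methods list the strain of this null allele as 129S6/SvEvTac, backcrossed, and that of the floxed and Cre alleles as C57Bl/6J.

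Oligodendrocytes are known as the cells of the brain richest in iron, which enzymes of lipid and cholesterol synthesis need to make myelin. Iron arrives bound to transferrin or to ferritin, is stored in a shell of ferritin heavy and light chains, and leaves the cell through ferroportin together with a copper ferroxidase. Iron regulatory proteins couple these steps: when iron is low, they bind a hairpin called the iron-responsive element, which blocks translation when it lies in a 5′ UTR and protects the transcript from decay when it lies in the 3′ UTR of the transferrin receptor.

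The elements are shown because this control acts in part on translation and so is not seen in a transcript level. Only 1 form of the hairpin was searched for, so the search does not settle which of the transcripts below are open to this control. The transcript strand of the UTRs of GENCODE basic protein-coding transcripts was searched for a C, 5 bases of stem, the 6-letter loop CAGTGN and 5 bases that pair with the first stem, G-T pairs allowed. Of the 10 genes, 4 held a match and 6 did not (Trf, Slc11a2, Cp, Hmox1, Aco1 and Ireb2). This says only that these letters are not in their annotated UTRs, and it does not place the 6 outside the control. The pattern was found in the 5′ UTR of 0.136% of 20544 genes and in the 3′ UTR of 0.607% of 20937 genes. Each sequence below is 30 bases of the transcript strand, written with T for U and with the loop in capitals.

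Fth1, 5′ UTR, chr19:9982731-9982760, plus strand: tttcctgcttcaaCAGTGCttgaacggaac
Ftl1, 5′ UTR, chr7:45459779-45459808, minus strand: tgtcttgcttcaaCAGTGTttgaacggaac
Slc40a1, 5′ UTR, chr1:45925465-45925494, minus strand: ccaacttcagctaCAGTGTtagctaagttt
Tfrc, 3′ UTR, chr16:32631218-32631247, plus strand: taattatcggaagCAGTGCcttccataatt
Tfrc, 3′ UTR, chr16:32631597-32631626, plus strand: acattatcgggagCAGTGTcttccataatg
Tfrc, 3′ UTR, chr16:32631662-32631691, plus strand: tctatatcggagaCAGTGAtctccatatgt
Tfrc, 3′ UTR, chr16:32631709-32631738, plus strand: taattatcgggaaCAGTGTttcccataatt

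Positions are of GRCm38. The storage chains and the exporter thus held 1 match each at the 5′ end, and Tfrc held 4 at the 3′ end.

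The samples held 61485556 to 153495112 counts, so that counting error of the genes below was small beside the differences between samples. Levels are given as CPM, the counts of a gene relative to the total of its sample, with TMM factors over all 12 samples. Whole-gene counts of Cops5 were 48.4 to 139.2 CPM in WT samples, 42.5 to 86.1 in Jab1 mutant (Cnp-Cre Jab1fl/fl) samples and 45.5 to 87.5 in double mutant samples, and those of Cdkn1a were at most 89.0, 366.4 to 602.5 and 63.3 to 106.3. Which exons these reads came from was not analysed here, so they check neither deletion. The label of the cells was checked against 16 mature oligodendrocyte markers, none of which was at 0 in any genotype. The mean log2(CPM + 1) of these markers was 9.84 to 11.01 in WT samples, 6.68 to 9.09 in Cnp-Cre Jab1fl/fl samples and 7.87 to 10.05 in double mutants. For 11 astrocyte markers this score was 8.13 to 9.70, 7.56 to 8.74 and 7.71 to 9.23. It was above the mature oligodendrocyte score in Cnp-Cre Jab1fl/fl replicates 1 and 3 and in double mutant replicates 2, 3 and 5. The lists hold different genes, so the scores do not give shares of cells, and the samples did not hold oligodendrocyte transcripts alone. The same score over 20 microglial markers was 2.02 to 3.47, 5.71 to 6.88 and 3.74 to 9.41, over 12 endothelial markers 4.43 to 5.29, 5.43 to 8.04 and 5.23 to 8.06, and over 11 choroid plexus markers 2.54 to 4.57, 4.80 to 6.57 and 4.56 to 6.75. Against WT, 9 of 16 oligodendrocyte markers were called lower in Cnp-Cre Jab1fl/fl samples, and 19 of 20 microglial, 8 of 12 endothelial, 5 of 10 tested mural, 5 of 11 choroid plexus, 2 of 5 tested border macrophage and 1 of 10 OPC (oligodendrocyte progenitor) markers were called higher, whereas 0 astrocyte, 0 neuronal and 0 of 6 tested erythroid markers were called. Over all genes tested, 2.46% were called lower and 5.19% higher. In both other comparisons 0 markers of each list were called, beside 0.192% of all genes between double mutants and WT and 0.0% between the mutants. At an unadjusted p below 0.05 by edgeR, double mutants differed from WT in 19 of 20 microglial and 11 of 12 endothelial markers. Choroid plexus (7 of 11), mature oligodendrocyte (8 of 16), mural (4 of 10) and neuronal (4 of 12) markers followed. The others were border macrophage (1 of 5), astrocyte (1 of 11), OPC (0 of 10) and erythroid (0 of 6). The share of all genes was 12.4%. Of the defining markers, Ptprc (CD45) was at 0 to 1.57 CPM in WT samples, 31.7 to 100.2 in Cnp-Cre Jab1fl/fl samples and 3.20 to 97.9 in double mutants, the border macrophage markers F13a1 and Lyve1 were at 0 in all WT samples, and the erythroid marker Rhag was at 0 in WT and Cnp-Cre Jab1fl/fl. The part of these cells in the results below was not tested, and in bulk samples fewer cells of a type and less RNA per cell cannot be told apart.

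**Figure D1:**
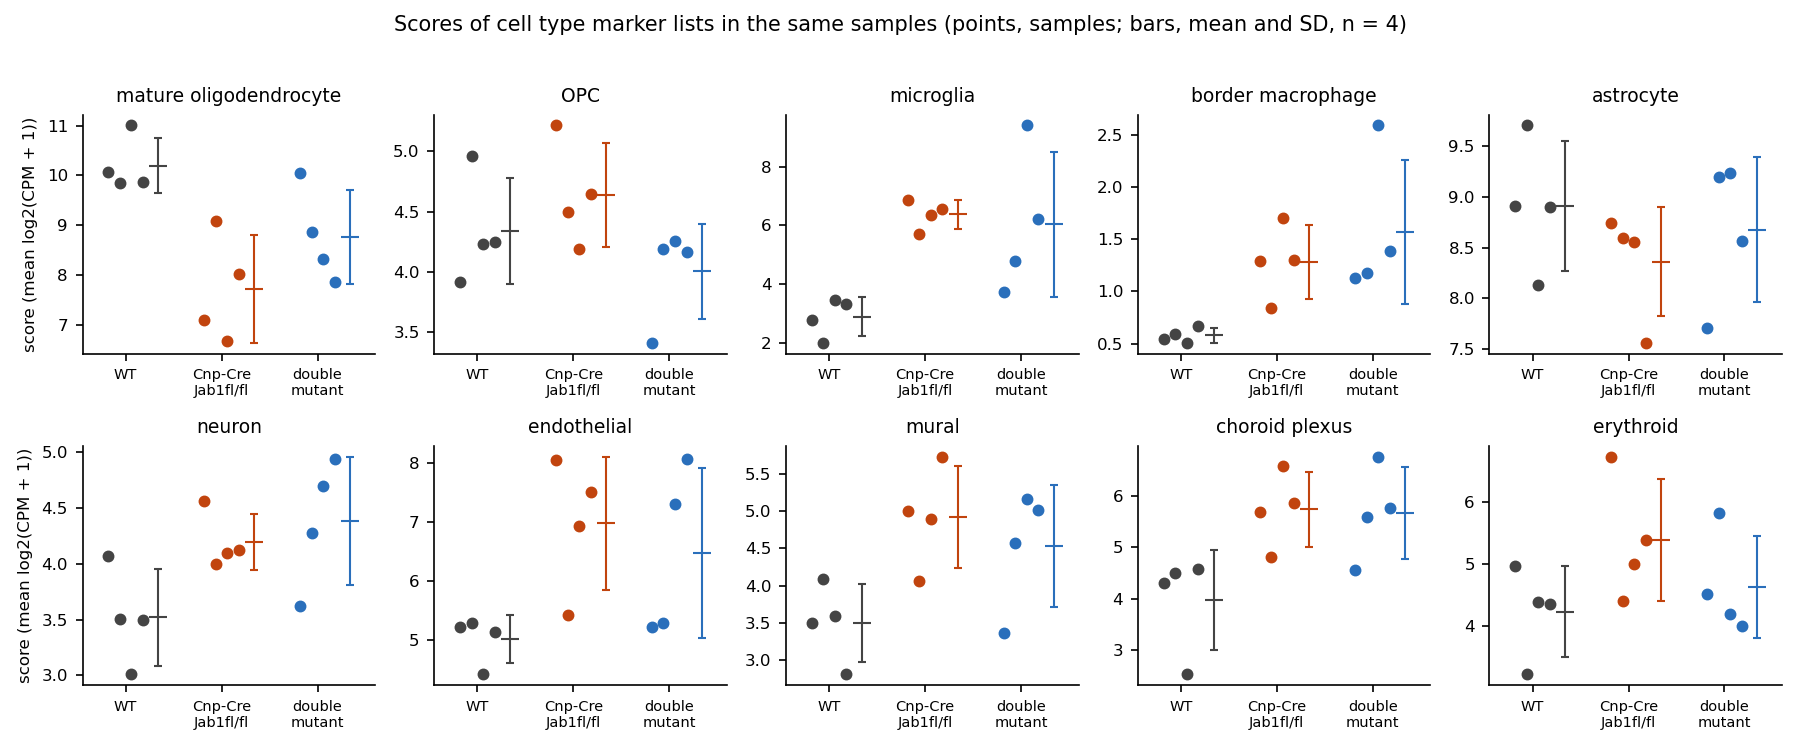
Score of 10 lists of cell type markers (mean log2(CPM + 1), y axis, each panel on its own scale that does not start at 0) in the 4 samples of each genotype, with the mean and SD beside the points. Mature oligodendrocyte scores are lower in all 4 Cnp-Cre Jab1fl/fl samples (6.68 to 9.09) than in WT (9.84 to 11.01), while microglial scores are higher (5.71 to 6.88 against 2.02 to 3.47). Double mutant replicate 1 is within the WT range for mature oligodendrocyte, endothelial, mural and choroid plexus markers.

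Per kilobase of exon, the level of ferritin heavy chain stood far above that of every other gene in WT cells. Fth1 reached 5733 ± 2833 CPM per kb (SD, n = 4), Ftl1 387 ± 147 and Trf 222 ± 98.7. They were followed by Aco1 at 17.1 ± 6.73 CPM per kb, Tfrc at 8.70 ± 0.807, Slc11a2 at 7.65 ± 2.72, Hmox1 at 3.75 ± 2.01, Slc40a1 at 3.73 ± 2.63, Ireb2 at 3.03 ± 0.834 and Cp at 1.92 ± 0.624. In this order the WT ranges of neighbours did not overlap between Fth1 and Ftl1, between Trf and Aco1 and between Aco1 and Tfrc, and the ranges of all other neighbours overlapped. The values of Trf and Ftl1 are uncertain. Trf shares 2108 of its 2749 exonic bases with Gm20425, an overlapping gene on the same strand that had 6 counts in 1 sample and 0 in the other 11. Ftl1 shares up to 464 of 968 bases with Gm22133 and Gm10252, a sum that counts any base under both genes once for each. If reads in the shared bases were left uncounted, the WT levels would be 952 CPM per unshared kb for Trf and at most 743 for Ftl1, which turns their order around.

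The ferroxidase gene Cp was higher in Cnp-Cre Jab1fl/fl than in WT cells, and it was the 1 of 10 iron handling genes that passed the test. Over all 17716 genes tested, 5.19% were called higher and 7.64% in either direction, so that 1 of 10 is near the share of all genes. Among the 9 others, 4 had lower fitted levels (Trf, Slc11a2, Aco1 and Fth1) and 5 higher ones (Slc40a1, Hmox1, Ftl1, Tfrc and Ireb2), all without passing the test. The median log2 fold change of the 10 genes was 0.47, as compared with 0.02 over all genes tested, and 5 of 10 had an unadjusted p below 0.05, a mark that 22.5% of all genes reached. DESeq2 called 3 of 10 (Cp, Slc40a1 and Trf) and 15.3% of all genes to which it gave an adjusted p, edgeR called 2 (Cp and Slc40a1) and 13.9% over the genes with a mean CPM of 10 or more, and without Cnp-Cre Jab1fl/fl replicate 2 edgeR called 3 (Cp, Slc40a1 and Trf) and 10.5%. Between double mutants and WT, 0 of 10 and 0.192% of all genes were called, while 3 of 10 (Cp, Ftl1 and Slc40a1) and 12.4% of all genes had an unadjusted p below 0.05. DESeq2 called these 3 and 4.94% of all genes with its adjusted p, and edgeR called 1, Cp, and 1.34% over the genes with a mean CPM of 10 or more. Between the mutants, 0 of 10 were called by edgeR and by DESeq2 and 0 of 10 had an unadjusted p below 0.05. The shares of all genes were 0.0% for edgeR, 0.499% for DESeq2 and 5.0% at the unadjusted p. Both comparisons with WT share the WT samples, and each shares its mutant samples with the comparison between the mutants, so they are not independent of each other. Nothing in the labels says more than that the samples were separate pools of brains, and p-values measure the spread between these pools.

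**Figure D2:**
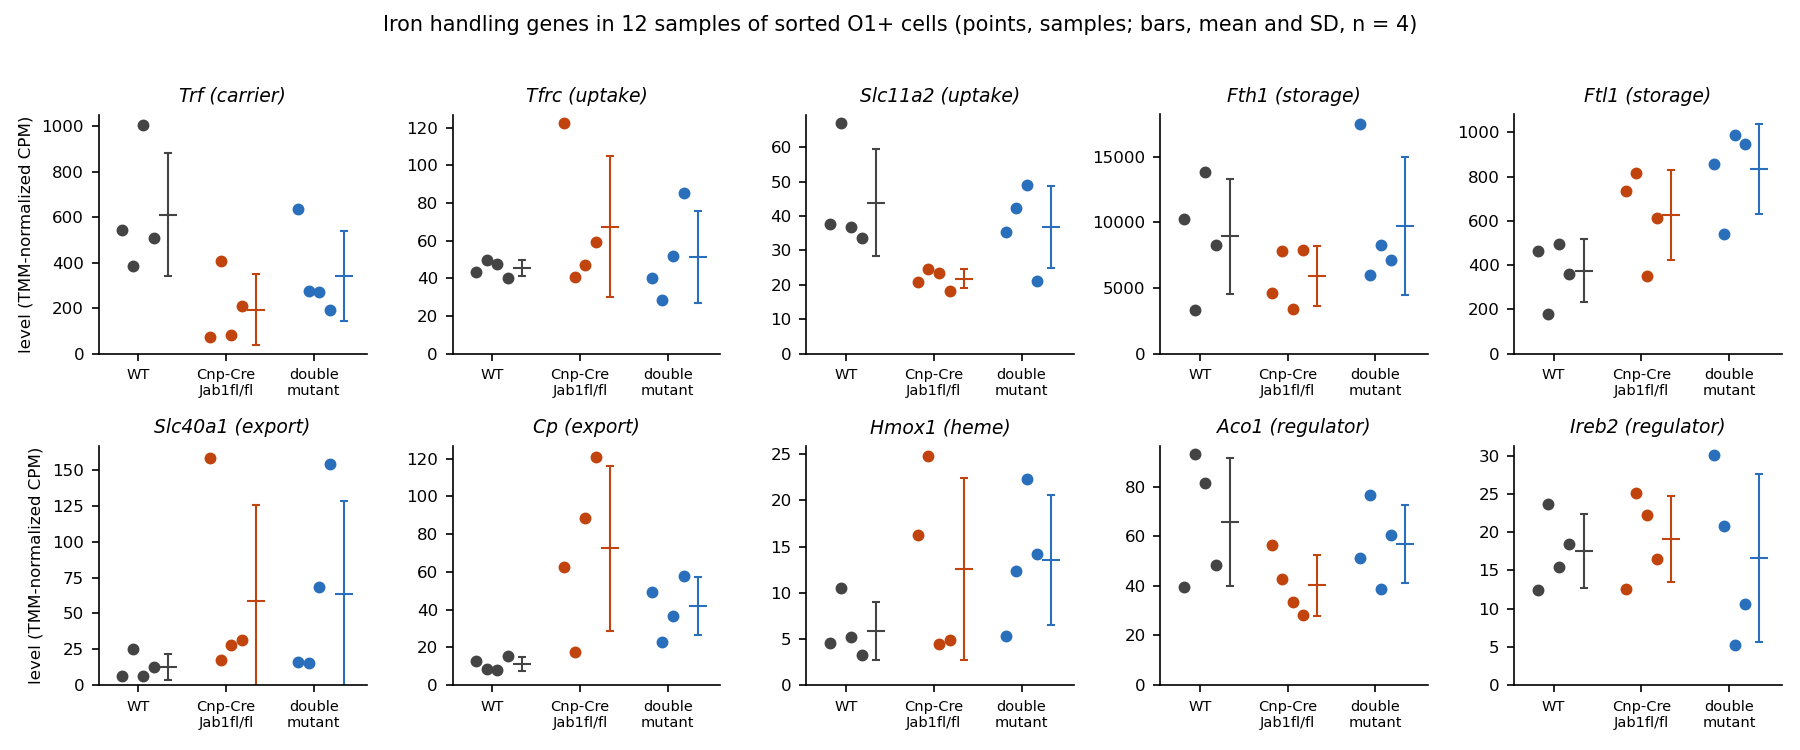
Level of each of the 10 iron handling genes (TMM-normalized CPM, y axis from 0, each panel on its own scale) in the 4 samples of each genotype, with the mean and SD beside the points; the lower SD bars of Slc40a1 end at the axis. All 8 mutant samples lie above WT for Cp, all 4 double mutants lie above WT for Ftl1, and all 4 Cnp-Cre Jab1fl/fl samples lie below WT for Slc11a2.

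Trf encodes transferrin, the iron carrier that oligodendrocytes are known to make themselves (chr9:103204001-103230444, minus strand, 18 exonic blocks). Its level was 544.6, 384.8, 1004.3 and 508.5 CPM in WT replicates 1, 3, 5 and 6. Replicates 1 to 4 of Cnp-Cre Jab1fl/fl had 73.3, 408.4, 83.6 and 207.3 CPM. Replicates 1, 2, 3 and 5 of the double mutants had 634.3, 276.5, 269.2 and 189.7 CPM. In each mutant genotype 3 of 4 samples thus lay below all WT samples and 1 lay within the WT range. The fitted level was 2.94-fold lower in Cnp-Cre Jab1fl/fl than in WT (log2 fold change -1.56 ± 0.54 SE, edgeR adjusted p = 0.108), which did not pass the test. Without Cnp-Cre Jab1fl/fl replicate 2, the sample within the WT range, it was -2.19 and was called (edgeR adjusted p = 0.0198), and DESeq2 called it with all 8 samples (-1.57, adjusted p = 0.0121). In double mutants the difference from WT was -0.79 ± 0.44 (edgeR adjusted p = 0.497), and the difference between the mutants was 0.79 with a 95% interval of -0.47 to 2.04, which spans a lower as well as a 4.12-fold higher level in double mutants.

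Cnp-Cre Jab1fl/fl replicate 2 and double mutant replicate 1, the samples with the highest Trf of their genotypes, also had the highest mature oligodendrocyte scores of their genotypes (9.09 and 10.05). Trf was therefore set against the mean of the 16 mature oligodendrocyte markers within each sample, as a difference on the log2(CPM + 1) scale. This difference was -0.97, -1.25, -1.03 and -0.88 in WT, -0.87, -0.42, -0.27 and -0.32 in Cnp-Cre Jab1fl/fl samples and -0.74, -0.74, -0.24 and -0.29 in double mutants. Relative to these 16 markers all 8 mutant values lay above all WT values, Cnp-Cre Jab1fl/fl replicate 1 by the smallest margin. The mean was 0.56 higher in Cnp-Cre Jab1fl/fl than in WT and 0.53 higher in double mutants than in WT, each with a two-sided exact permutation p of 0.0286, the smallest that 70 relabelings can give, and an adjusted p of 0.0571 over 6 such tests. The mutant genotypes differed by -0.03 (exact permutation p = 0.971). The separation rests on the choice of markers. Against the 6 most abundant of them the difference was -3.01, -3.39, -3.19 and -2.91 in WT, -3.97, -2.57, -2.60 and -2.52 in Cnp-Cre Jab1fl/fl samples and -2.88, -3.02, -2.73 and -2.64 in double mutants. Cnp-Cre Jab1fl/fl replicate 1 then lay below all WT samples and double mutant replicate 2 within their range. The mean was 0.21 above WT for Cnp-Cre Jab1fl/fl samples (adjusted p = 0.720, exact permutation p = 0.600) and 0.31 above WT in double mutants (exact permutation p = 0.0857, adjusted p = 0.171). A difference of this kind does not say which side of it changed. Choroid plexus scores were above WT (at most 4.57) in every Cnp-Cre Jab1fl/fl sample and in double mutant replicates 2, 3 and 5. The part of these and other cells in the level of Trf was not tested.

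Tfrc, the transferrin receptor that takes iron-loaded transferrin into the cell (chr16:32608920-32632794, plus strand), was the steadiest of the genes in WT, where it was at 43.2, 49.6, 47.6 and 40.3 CPM. It was at 122.1, 40.9, 46.8 and 59.0 CPM in Cnp-Cre Jab1fl/fl, and at 40.0, 28.4, 51.9 and 85.0 CPM in double mutants. Of Cnp-Cre Jab1fl/fl samples 2 lay above and 2 within the WT range, and in double mutants 2 lay above and 2 below it. The log2 fold change from WT was 0.69 ± 0.36 (edgeR adjusted p = 0.287) in Cnp-Cre Jab1fl/fl samples and 0.25 ± 0.36 (adjusted p = 0.815) in double mutants. Without Cnp-Cre Jab1fl/fl replicate 1 the first became 0.24, and without double mutant replicate 5 the second became -0.12. These are the samples with the highest endothelial scores (8.04 and 8.06), and brain endothelium is known to carry this receptor. Cnp-Cre Jab1fl/fl replicate 1 also had the highest erythroid score of the series (6.72). Cnp-Cre Jab1fl/fl replicates 3 and 4 and double mutant replicate 3, with endothelial scores of 6.93, 7.50 and 7.30, had Tfrc at 46.8, 59.0 and 51.9 CPM. The part of these cells in the level of Tfrc was not tested.

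Slc11a2 encodes DMT1, which moves ferrous iron out of the endosome (chr15:100387898-100425072, minus strand). Its level was 37.8, 67.1, 36.9 and 33.6 CPM in WT, 20.8, 24.5, 23.5 and 18.3 in Cnp-Cre Jab1fl/fl samples and 35.3, 42.2, 49.0 and 21.1 in double mutants. All 4 Cnp-Cre Jab1fl/fl samples lay below all WT samples, whereas 3 of 4 double mutant samples lay within the WT range and replicate 5 lay below it. Cp and Slc11a2 were the 2 of 10 genes whose Cnp-Cre Jab1fl/fl and WT values did not overlap, as compared with 17.7% of all genes tested. The level was 1.86-fold lower in Cnp-Cre Jab1fl/fl than in WT (log2 fold change -0.89 ± 0.32, edgeR adjusted p = 0.120). Double mutants differed from Cnp-Cre Jab1fl/fl by 0.71 ± 0.35 (adjusted p = 0.968 and unadjusted p = 0.0650, the smallest of the 10 genes in that comparison), with a 95% interval of -0.05 to 1.48. None of these differences passed the test. Without WT replicate 3 the difference from WT was -0.63 in Cnp-Cre Jab1fl/fl, and in double mutants it turned from -0.19 to 0.09.

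Fth1, the ferritin heavy chain that oxidizes iron as it enters the shell (chr19:9980598-9985098, plus strand), was at 10289, 3293, 13869 and 8274 CPM in WT. It was at 4651, 7833, 3365 and 7901 CPM in Cnp-Cre Jab1fl/fl samples and at 17528, 5972, 8279 and 7168 CPM in double mutants. The groups overlapped throughout, with WT replicate 3 below every mutant sample and double mutant replicate 1 above every other sample. The log2 fold change was -0.47 ± 0.46 (edgeR adjusted p = 0.611) in Cnp-Cre Jab1fl/fl samples and 0.18 ± 0.50 (adjusted p = 0.923) in double mutants, each as compared with WT. The 95% intervals of these were wide, from -1.49 to 0.55 and from -0.94 to 1.29.

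Ftl1, the ferritin light chain that helps the iron core form (chr7:45457944-45459884, minus strand), was at 463.1, 178.8, 494.4 and 361.6 CPM in WT. It was at 732.8, 814.4, 349.7 and 611.3 CPM in Cnp-Cre Jab1fl/fl samples and at 857.8, 538.2, 988.3 and 949.3 CPM in double mutants. Above WT lay 3 of 4 Cnp-Cre Jab1fl/fl samples and all 4 double mutant samples. Ftl1 and Cp were the 2 of 10 genes whose double mutant and WT values did not overlap, as compared with 8.15% of all genes. The level was 1.81-fold higher in Cnp-Cre Jab1fl/fl (log2 fold change 0.86 ± 0.38, edgeR adjusted p = 0.208) and 2.33-fold higher in double mutants (1.22 ± 0.38, adjusted p = 0.225) than in WT, neither of which passed the test. DESeq2 called the second (adjusted p = 0.0329). In double mutant replicate 1, whose mature oligodendrocyte (10.05), endothelial (5.23), mural (3.36) and choroid plexus (4.56) scores were within the WT ranges and whose microglial (3.74) and border macrophage (1.13) scores were above the highest of WT (3.47 and 0.672), Ftl1 was at 857.8 CPM, above the highest WT value of 494.4. This is 1 sample, and it also had the highest Fth1 of the series (17528 CPM). The part of other cells in the level of Ftl1 was not tested.

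Both chains assemble into a single shell, so their ratio was taken within each sample, where library scaling cancels. Fth1 had 22.2, 18.4, 28.1 and 22.9 times the CPM of Ftl1 in WT. The ratio was 6.35, 9.62, 9.62 and 12.9 in Cnp-Cre Jab1fl/fl samples, and 20.4, 11.1, 8.38 and 7.55 in double mutants. All 4 Cnp-Cre Jab1fl/fl values and 3 of 4 double mutant values lay below WT, and double mutant replicate 1 lay within the WT range. With 1 added to each CPM, as in the tests, the mean log2 ratio was 4.50 ± 0.25 (SD, n = 4) in WT, 3.22 ± 0.42 in Cnp-Cre Jab1fl/fl samples and 3.45 ± 0.64 in double mutants. The ratio was 2.42-fold lower in Cnp-Cre Jab1fl/fl than in WT, with a two-sided exact permutation p of 0.0286 and an adjusted p of 0.0571 over the 6 tests of ratios. It was 2.07-fold lower in double mutants than in WT (exact permutation p = 0.0571, adjusted p = 0.0857), and the mutant genotypes differed by 0.23 on the log2 scale (exact permutation p = 0.571). With this design no exact p lies below 0.0286, so that no ratio could have an adjusted p of 0.05 or less unless at least 4 of the 6 had reached it. The microglial markers, which come from cells known to hold much light chain, were higher than in WT in every mutant sample. Scores were 5.71 to 6.88 in Cnp-Cre Jab1fl/fl samples and 3.74 to 9.41 in double mutants as compared with 2.02 to 3.47 in WT. Double mutant replicate 1, with its ratio within the WT range, had the 3.74, and replicate 3, with a ratio of 8.38, had the 9.41. Every Cnp-Cre Jab1fl/fl sample also had endothelial and choroid plexus scores above WT and a mature oligodendrocyte score below WT. The part of any of these cells in the ratio was not tested.

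**Figure D3:**
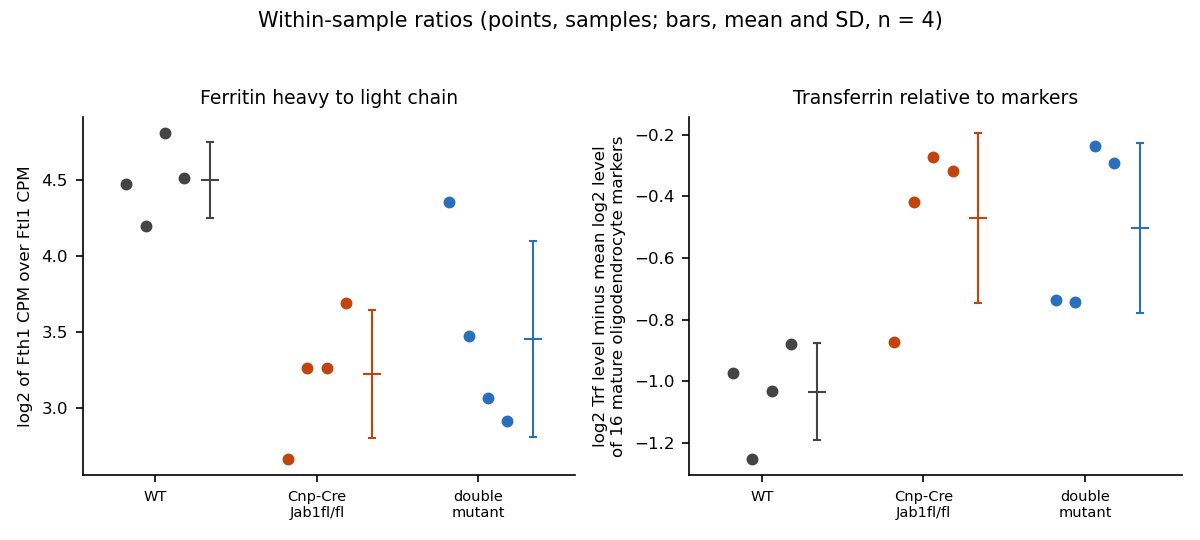
Left, log2 of the Fth1 to Ftl1 ratio, and right, log2 level of Trf minus the mean of 16 mature oligodendrocyte markers (y axes do not start at 0), in the 4 samples of each genotype, with the mean and SD beside the points. On the left all 4 Cnp-Cre Jab1fl/fl samples are below WT and double mutant replicate 1 is within the WT range; on the right all 8 mutant samples are above WT, where the mean is -1.03 as compared with -0.47 in Cnp-Cre Jab1fl/fl samples and -0.50 in double mutants.

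Other genes of the ferritin family could share reads with these, and how reads with several matches were counted is not given in the sources used here. The light chain copies Ftl1-ps1, Ftl2-ps and Ftl1-ps2 had at most 2.25%, 1.19% and 0.884% of the counts of Ftl1 in any sample, and the heavy chain copies Fth-ps3 and Fth-ps2 had at most 0.0301% and 0.0447% of those of Fth1. Mitochondrial ferritin, Ftmt, had 6 counts over all samples, and the Fthl17 genes had 0.

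Slc40a1 encodes ferroportin, the iron exporter (chr1:45908068-45926523, minus strand), and varied more than any other of the 10 genes, 26.5-fold over the 12 samples. Its level was 6.54, 25.1, 5.98 and 12.7 CPM in WT, 158.5, 17.7, 27.8 and 31.2 in Cnp-Cre Jab1fl/fl samples and 16.1, 15.6, 68.4 and 154.0 in double mutants. Above WT lay 3 of 4 Cnp-Cre Jab1fl/fl and 2 of 4 double mutant samples, and the rest were within the WT range. The log2 fold change from WT was 2.34 ± 0.73 (edgeR adjusted p = 0.0771) in Cnp-Cre Jab1fl/fl samples and 2.42 ± 0.79 (adjusted p = 0.241) in double mutants. DESeq2 called both (adjusted p = 0.00331 and 0.0154), and edgeR called the first when genes with a mean under 10 CPM were left out (adjusted p = 0.0256) and without Cnp-Cre Jab1fl/fl replicate 2 (0.0393). Without Cnp-Cre Jab1fl/fl replicate 1 the first fell to 1.15. The highest values, in Cnp-Cre Jab1fl/fl replicate 1 and double mutant replicate 5, were in the samples with the highest endothelial scores of the series (8.04 and 8.06), and the next highest, in double mutant replicate 3, was in the sample with the highest microglial score (9.41). The part of these cells in the level of Slc40a1 was not tested.

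Cp encodes ceruloplasmin, the copper ferroxidase that oxidizes iron leaving through ferroportin and that astrocytes are known to carry on their surface (chr3:19957054-20009145, plus strand, 22 exonic blocks). Its level was 12.98, 8.35, 7.93 and 15.4 CPM in WT. It was 62.6, 17.8, 88.8 and 121.1 CPM in Cnp-Cre Jab1fl/fl samples and 49.5, 23.0, 36.7 and 57.9 CPM in double mutants. All 8 mutant samples lay above all WT samples, Cnp-Cre Jab1fl/fl replicate 2 by the smallest margin. The level was 7.13-fold higher in Cnp-Cre Jab1fl/fl than in WT (log2 fold change 2.83 ± 0.54, edgeR adjusted p = 0.0109), with a 95% interval of 3.15 to 16.1-fold. This was called under all 14 alternatives, and with each sample left out in turn the log2 fold change was 2.45 to 3.15 and the edgeR adjusted p 0.00152 to 0.0414. In double mutants it was 3.89-fold higher than in WT (log2 fold change 1.96 ± 0.40), which did not pass the test (edgeR adjusted p = 0.0874) but was called by DESeq2 (adjusted p = 4.26e-04) and by edgeR with genes under a mean of 10 CPM left out (adjusted p = 0.0426). Double mutants differed from Cnp-Cre Jab1fl/fl by -0.86 ± 0.53 (adjusted p = 0.996), with a 95% interval of -2.03 to 0.31.

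The level of Cp is set here beside the marker scores of other cell types in the same samples, and the part of these cells in it was not tested. Of the 4 Cnp-Cre Jab1fl/fl samples, replicate 2 had the lowest Cp and also the lowest endothelial (5.43), choroid plexus (4.80), mural (4.06) and microglial (5.71) scores, whereas replicate 1, with the highest endothelial (8.04) and microglial (6.88) scores, had the second lowest Cp (62.6 CPM). The highest Cp, 121.1 CPM in Cnp-Cre Jab1fl/fl replicate 4, was in the sample with the highest mural (5.73) and lowest astrocyte (7.56) scores of the series. Replicate 3 of that genotype, with 88.8 CPM, had its highest choroid plexus score (6.57). Double mutant replicate 3, with the highest choroid plexus (6.75) and microglial (9.41) scores, had 36.7 CPM, the second lowest of its genotype. The highest Cp of the double mutants, 57.9 CPM in replicate 5, was in the sample with the highest endothelial score of the series (8.06). In double mutant replicate 1, where the endothelial, mural and choroid plexus scores were within the WT ranges and the astrocyte score (7.71) was below the lowest of WT (8.13), while the microglial (3.74) and border macrophage (1.13) scores were above WT, Cp was at 49.5 CPM as compared with at most 15.4 in WT. Cp also shares 108 of its 5800 exonic bases with Hps3 on the other strand, and Hps3 differed from WT by 0.88 in Cnp-Cre Jab1fl/fl (edgeR adjusted p = 0.236) and by 0.04 in double mutants (adjusted p = 0.980).

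Hmox1 encodes the inducible heme oxygenase, which frees iron from heme (chr8:75093621-75100589, plus strand). Its level was low in every genotype, at 4.54, 10.46, 5.23 and 3.29 CPM in WT, 16.2, 24.8, 4.42 and 4.85 in Cnp-Cre Jab1fl/fl samples and 5.29, 12.4, 22.3 and 14.2 in double mutants. Above the WT range were 2 Cnp-Cre Jab1fl/fl and 3 double mutant samples, and the others were within it. The log2 fold change from WT was 1.19 ± 0.66 (edgeR adjusted p = 0.322) in Cnp-Cre Jab1fl/fl samples and 1.28 ± 0.58 (adjusted p = 0.405) in double mutants, neither of which passed the test.

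Aco1 and Ireb2 encode both iron regulatory proteins, IRP1, which is a cytosolic aconitase while iron is plentiful, and IRP2, which is degraded when iron is plentiful. Aco1 (chr4:40143081-40198338, plus strand) was at 39.4, 93.2, 81.5 and 48.3 CPM in WT, 56.3, 42.7, 33.6 and 28.1 in Cnp-Cre Jab1fl/fl samples and 51.3, 76.5, 38.9 and 60.5 in double mutants. Of Cnp-Cre Jab1fl/fl samples, 2 lay below the WT range and 2 within it. Ireb2 (chr9:54863789-54912530, plus strand) was at 12.4, 23.7, 15.5 and 18.4 CPM in WT, 12.5, 25.1, 22.2 and 16.5 in Cnp-Cre Jab1fl/fl samples and 30.0, 20.7, 5.21 and 10.6 in double mutants. Its widest spread was thus among double mutants, 5.76-fold, on both sides of the WT range. For Cnp-Cre Jab1fl/fl against WT, the log2 fold change was -0.59 ± 0.35 for Aco1 (edgeR adjusted p = 0.359) and 0.24 ± 0.38 for Ireb2 (adjusted p = 0.771). For double mutants it was -0.16 ± 0.34 for Aco1 (adjusted p = 0.893) and -0.04 ± 0.51 for Ireb2 (adjusted p = 0.984).

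**Figure D4:**
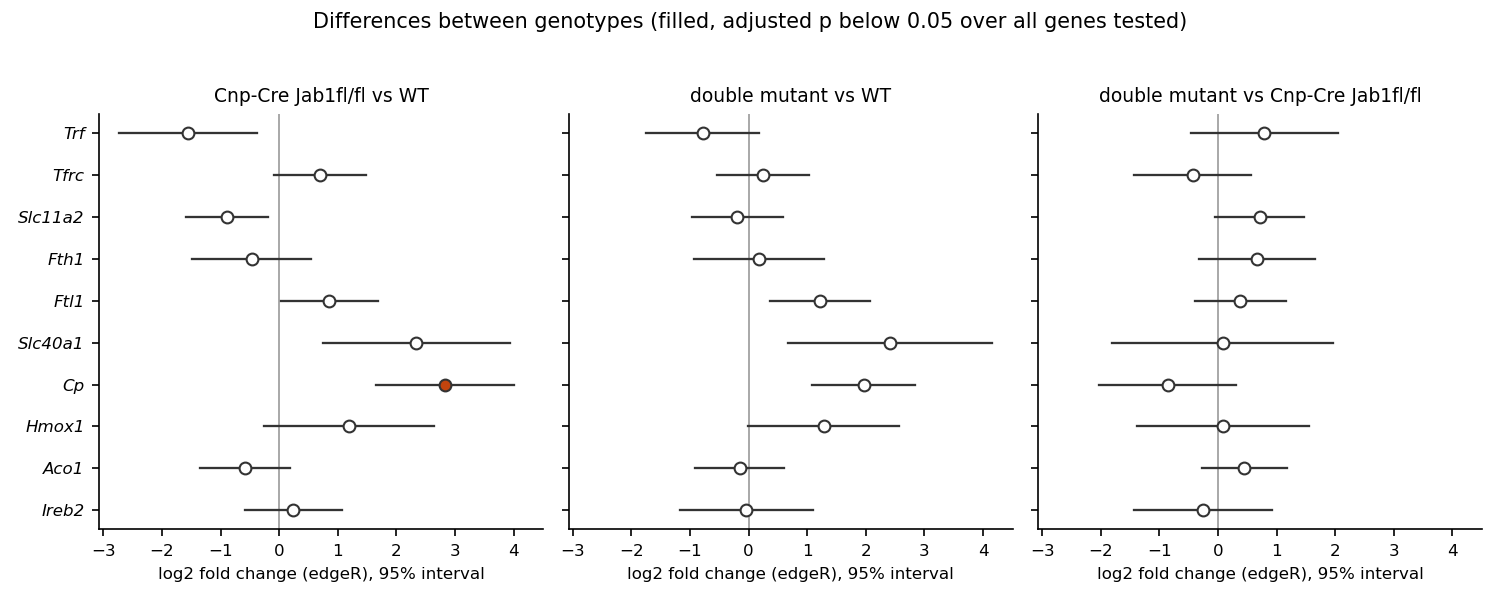
Log2 fold change of the 10 iron handling genes (x axis; points, edgeR estimate; lines, 95% interval) in the 3 comparisons of genotypes, filled where the adjusted p over all genes tested is below 0.05. Cp at 2.83 between Cnp-Cre Jab1fl/fl and WT is the 1 filled point, and every interval between the mutant genotypes includes 0.

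The other genes of iron and heme metabolism were read from the same fits, as a list of 77 genes in 7 groups by role, of which 64 passed the filter. Against WT, 2 of 64 were called higher (Slc11a1 and Epas1) and 2 lower (Slc48a1 and Fbxl5) in Cnp-Cre Jab1fl/fl, beside 5.19% and 2.46% of all genes tested. The median log2 fold change was -0.07, as compared with 0.02 over all genes. Calls came from uptake and reduction (1 of 10 tested), regulation (2 of 3) and heme transport and breakdown (1 of 10), whereas 0 of 3 were called in storage and ferritin turnover, 0 of 3 in export and systemic control, 0 of 11 in heme synthesis and 0 of 24 in mitochondrial iron and iron-sulfur clusters, groups in which 0, 0, 3 and 5 genes had an unadjusted p below 0.05 by edgeR. DESeq2 called 7 of the 64, beside 15.3% of all genes with its adjusted p. The 13 genes that did not pass the filter were Tfr2, Steap4, Timd2, Scara5, Ftmt, Hephl1, Hamp, Hamp2, Hjv, Tmprss6, Erfe, Hp and Fdx1l, among them hepcidin (Hamp), the hormone that removes ferroportin from the membrane.

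**Figure D5:**
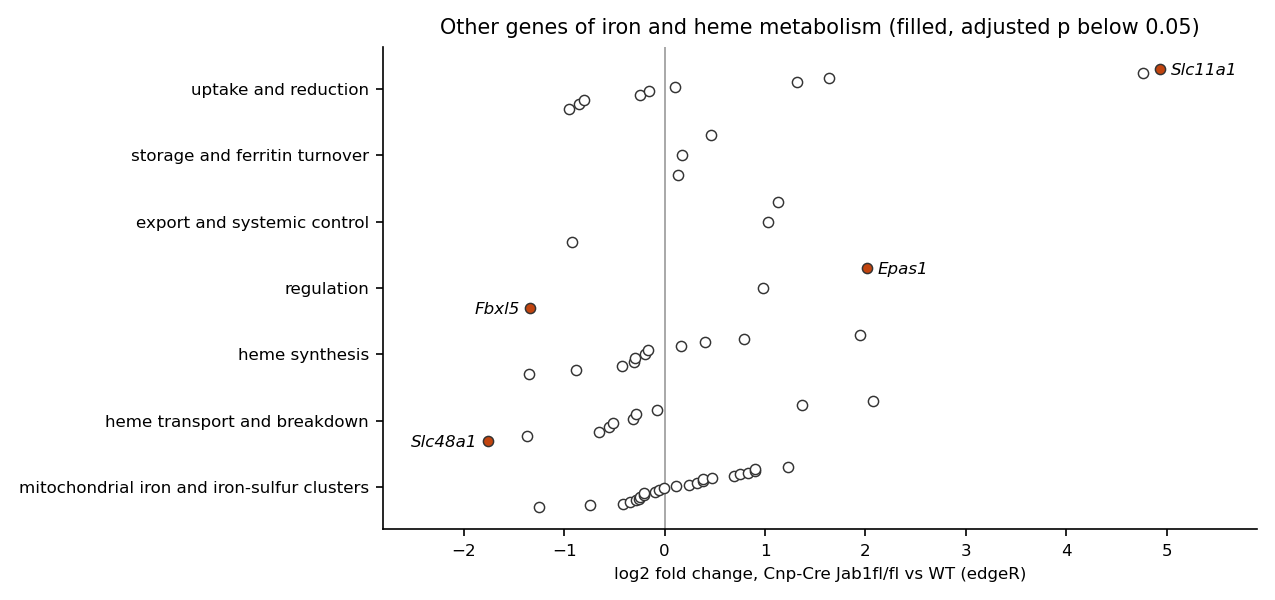
Log2 fold change (x axis, edgeR) of the 64 other genes of iron and heme metabolism tested between Cnp-Cre Jab1fl/fl and WT, by role (y axis; genes of a role are spread in order of their value), filled where the adjusted p over all genes tested is below 0.05. Slc11a1 at 4.93 and Epas1 at 2.01 are filled on the higher side, and Slc48a1 at -1.76 and Fbxl5 at -1.34 on the lower side.

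Slc11a1, a metal transporter of the phagosome known from macrophages and microglia (chr1:74375195-74386062, plus strand), was at 1.51, 0.175, 1.31 and 0.467 CPM in WT. It was at 22.8, 24.1, 41.3 and 8.79 CPM in Cnp-Cre Jab1fl/fl samples and at 6.58, 10.2, 124.0 and 5.18 CPM in double mutants. All 8 mutant samples lay above WT, and the highest value, in double mutant replicate 3, was in the sample with the highest microglial score (9.41). The log2 fold change was 4.93 ± 0.79 (edgeR adjusted p = 0.00539) in Cnp-Cre Jab1fl/fl against WT, and it was called with each sample left out in turn. It was 5.50 ± 1.25 (adjusted p = 0.110) in double mutants, where it fell to 3.11 without replicate 3 and was called without replicate 1 (adjusted p = 0.0489), as were 1.55% of all genes.

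Slc48a1 encodes HRG1, which carries heme out of lysosomes (chr15:97778520-97792692, plus strand). It was at 1039, 972.4, 2011 and 928.6 CPM in WT, 228.6, 613.3, 164.6 and 351.8 in Cnp-Cre Jab1fl/fl samples and 1075, 636.2, 531.6 and 431.5 in double mutants. All 4 Cnp-Cre Jab1fl/fl samples and 3 of 4 double mutant samples lay below WT, and within each mutant genotype the samples had the same order by Slc48a1 as by mature oligodendrocyte score. In WT the order differed, as replicate 3 had a lower score (9.84) than replicate 6 (9.87) but more Slc48a1. Slc48a1 was 3.38-fold lower in Cnp-Cre Jab1fl/fl than in WT (log2 fold change -1.76 ± 0.44, edgeR adjusted p = 0.0347) and had the smallest p of the list between the mutants, where it was 0.94 ± 0.45 higher in double mutants (unadjusted p = 0.0598, adjusted p = 0.968).

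Fbxl5, the subunit of a ubiquitin ligase that targets IRP2 for degradation when iron is plentiful (chr5:43744615-43821638, minus strand), was at 132.6, 155.3, 247.8 and 129.0 CPM in WT. It was at 65.2, 91.2, 36.1 and 50.9 CPM in Cnp-Cre Jab1fl/fl samples and at 114.0, 90.9, 62.7 and 70.2 CPM in double mutants. All 8 mutant samples lay below all WT samples. The level was 2.53-fold lower in Cnp-Cre Jab1fl/fl (log2 fold change -1.34 ± 0.34, edgeR adjusted p = 0.0371) and 1.90-fold lower in double mutants (-0.93 ± 0.31, adjusted p = 0.255, not called) than in WT.

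Epas1 encodes HIF-2α, a transcription factor whose own transcript is known to carry an iron-responsive element and which is abundant in endothelium (chr17:86753700-86833410, plus strand). It was at 77.0, 50.2, 29.8 and 44.4 CPM in WT, 202.1, 51.3, 150.1 and 339.7 in Cnp-Cre Jab1fl/fl samples and 45.6, 57.5, 148.2 and 243.0 in double mutants. The samples above WT were the same that had endothelial scores of 6.93 or more, and Cnp-Cre Jab1fl/fl replicate 2 and double mutant replicates 1 and 2, with scores of 5.43, 5.23 and 5.30, were within the WT range. The samples above WT were also those with mural scores of 4.90 or more and choroid plexus scores of 5.69 or more. The part of any of these cells in the level of Epas1 was not tested. The log2 fold change from WT was 2.01 ± 0.52 (edgeR adjusted p = 0.0389) in Cnp-Cre Jab1fl/fl samples and 1.37 ± 0.54 (adjusted p = 0.332) in double mutants. The calls of Slc48a1, Fbxl5 and Epas1 depended on the samples used. Leaving out any 1 of the 8 samples other than Cnp-Cre Jab1fl/fl replicate 2 ended all 3 of them, as did testing without a filter. With 1 sample left out, the edgeR adjusted p was at most 0.0934, 0.109 and 0.108. In the 7 fits that left out another sample than replicate 2 the log2 fold changes were -1.87 to -1.43 for Slc48a1, -1.43 to -1.09 for Fbxl5 and 1.52 to 2.29 for Epas1, and the calls over all genes fell from 1354 to between 678 and 886. Without replicate 2 all 3 were called (edgeR adjusted p = 0.0100, 0.0181 and 0.00660). Over all alternatives, by edgeR or DESeq2, the adjusted p was 3.06e-04 to 0.0934 for Slc48a1, 0.00251 to 0.248 for Fbxl5 and 5.14e-04 to 0.148 for Epas1.

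Between double mutants and WT, 0 of 64 genes of the list were called by edgeR, 8 had an unadjusted p below 0.05 and DESeq2 called 1, Steap1, a member of the Steap family (chr5:5736317-5749326, minus strand). The shares of all genes were 0.192%, 12.4% and 4.94%. Steap1 was at 7.13, 3.95, 2.63 and 9.80 CPM in WT, 20.3, 8.48, 31.8 and 6.49 in Cnp-Cre Jab1fl/fl samples and 5.20, 23.4, 53.4 and 40.2 in double mutants, of which 3 of 4 lay above WT. Its log2 fold change in double mutants was 2.45 ± 0.70 (edgeR adjusted p = 0.193), and without double mutant replicate 1, the sample within the WT range, it was 2.80 and was called (adjusted p = 0.0393). Between the mutants, 0 of 64 were called and 0 had an unadjusted p below 0.05. After Slc48a1, the smallest p there were those of Slc22a17, a receptor for lipocalin-bound iron (0.62 ± 0.31 higher in double mutants, unadjusted p = 0.0717), and of Mcoln1, a channel that releases iron from lysosomes (0.51 ± 0.31 higher, unadjusted p = 0.128).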

How the data were processed

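RNA-Seq of 12 samples of sorted O1+ cells was analysed, 4 per genotype, each a pool of 2 brains, with genotypes and replicate numbers from the labels. The authors made cDNA with a SMART-Seq v4 kit, used Trimmomatic 0.32 for trimming, STAR 2.5.3a for alignment to GRCm38 and featureCounts for counting on GENCODE release 22 of the mouse. The authors deposited raw counts for each gene symbol, with neither scaling nor filtering. Whether strand was used, and how reads with several matches were treated, is not given in the sources used here. Of 55376 symbols, 54402 (98.2%) matched 1 gene of GENCODE release 21 of the mouse, used here for positions, exons and UTRs. There were 0 rows that name no gene.

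CPM and fits were computed here with edgeR 4.0.16 in R 4.3.3. The quasi-likelihood test was fitted on the 8 samples compared, with TMM factors, on 17716 genes (those reaching 1 CPM in 4 or more of the 12 samples). P-values were adjusted by Benjamini-Hochberg over all of them with a threshold of 0.05. SE are those of the log2 fold change. Ratios within samples were compared by two-sided exact permutation tests on log2(CPM + 1), adjusted over 6 tests. On simulated counts with 200 of 17716 genes changed by 3 on the log2 scale, edgeR recovered 67%, 61% and 55% of them for Cnp-Cre Jab1fl/fl and double mutants against WT and for double mutants against Cnp-Cre Jab1fl/fl, with 2.90%, 6.87% and 4.35% false calls. No pair of samples of a genotype agreed within sampling noise. Replicate numbers gave no sign of pairing the samples, and the labels do not say whether they do.

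Alternatives were DESeq2 1.42.0, upper-quartile factors, no filter on low counts, a minimum mean of 10 CPM, 1 fit of all 12 samples, the replicate number as a block and each sample left out in turn, and for ratios a pseudocount of 0.1 and the 6 most abundant markers. The genes, lists, tests and alternatives were chosen with earlier results of these data known. Named in the text were all 10 iron handling genes, each gene of the longer list called in any comparison, and for a comparison without a call the 3 with the smallest unadjusted p. Strand-specific or isoform-level values were not analysed here.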

Additional observations from a re-analysis of the deposited data

Results flagged for a closer look

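Of the 36 sets of 4 samples (10 iron handling genes and both ratios in each genotype), 2 held 1 sample far from the other 3 by Dixon's test, which chance does in about 1 of 20 sets. Slc11a2 was at 67.1 CPM in WT replicate 3 and at 33.6 to 37.8 in the other WT samples. That replicate also had the lowest Fth1 and Ftl1 of WT, the highest Aco1, Ireb2, Slc40a1 and Hmox1, the highest astrocyte (9.70), OPC (4.96), endothelial (5.29) and mural (4.09) scores, and the lowest mature oligodendrocyte (9.84), microglial (2.02) and erythroid (3.22) scores. Slc40a1 was at 158.5 CPM in Cnp-Cre Jab1fl/fl replicate 1 and at 17.7 to 31.2 in the other samples of that genotype. That replicate also had the highest endothelial (8.04), erythroid (6.72), microglial (6.88), OPC (5.22), astrocyte (8.74) and neuronal (4.57) scores of its genotype and the lowest Trf of the series. No cause was tested for either.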

How the results depend on the processing

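For the 10 iron handling genes, 134 of 140 alternative values kept their direction and side of the threshold in Cnp-Cre Jab1fl/fl against WT, 127 of 140 in double mutants against WT and 129 of 140 between the mutants, and the cause of the others was not tested. Against 1 gene called in Cnp-Cre Jab1fl/fl, DESeq2 called 3, a mean of at least 10 CPM gave 2, and leaving out 1 sample gave 1 to 3. Of the longer list, against 4 called, DESeq2 called 7, no filter gave 1, and leaving out 1 sample gave 1 to 6. In double mutants against WT, where 0 were called, DESeq2 called 3 of the 10 and 1 of the longer list, a mean of at least 10 CPM gave 1 and 1, all 12 samples in 1 fit gave 1 of the longer list, and leaving out 1 sample gave 0 to 0 of the 10 and 0 to 2 of the longer list. Over all genes, Cnp-Cre Jab1fl/fl against WT had 1354 calls by edgeR and 2689 by DESeq2, and double mutants against WT 34 and 862. The share of all genes called in Cnp-Cre Jab1fl/fl was 7.64% by edgeR and 15.3% by DESeq2. It was 13.9% with a mean of at least 10 CPM, 2.28% with no filter and 3.83% to 10.5% with 1 sample left out. In double mutants these shares were 0.192% by edgeR and 4.94% by DESeq2. There it was 1.34% with a mean of at least 10 CPM, 0.926% with all 12 samples in 1 fit and 0.00564% to 1.55% with 1 sample left out.

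The replicate numbers gave no sign of pairing: deviations of same-numbered samples correlated at -0.19 to 0.08 over 8 pairs. Low correlations cannot exclude a shared litter or day of sorting, which the labels do not give. With the replicate number as a block, 2 of the 10 genes were called in Cnp-Cre Jab1fl/fl against WT, Cp and Trf (-2.41, adjusted p = 0.0227), and over all genes 660, 1 and 0 were called in the 3 comparisons. Between the mutants the block turned Slc40a1 to -0.67, Hmox1 to -0.28 and Slc11a1 to -0.61.

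The ratios kept their direction against WT in every alternative, but with the 6 most abundant markers the difference of Trf relative to them fell from 0.56 to 0.21 in Cnp-Cre Jab1fl/fl (adjusted p = 0.720) and from 0.53 to 0.31 in double mutants (adjusted p = 0.171), and values overlapped with WT. Between the mutants, the difference of the Fth1 to Ftl1 ratio ranged from -0.070 to 0.41 with 1 sample left out, and that of Trf relative to the markers from -0.17 to 0.049, and to 0.10 with the 6 most abundant markers. With 3 samples against 4, the smallest exact permutation p is 0.0571.

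With 1 sample left out, directions that turned were, in double mutants against WT, those of Tfrc (-0.12 to 0.47), Slc11a2 (-0.36 to 0.085), Fth1 (-0.25 to 0.47), Aco1 (-0.34 to 0.060), Ireb2 (-0.48 to 0.28) and Slc22a17 (-0.43 to 0.18), and between the mutants those of Tfrc (-0.80 to 0.038), Slc40a1 (-0.85 to 1.29), Hmox1 (-0.27 to 0.63), Ireb2 (-0.70 to 0.059) and Slc11a1 (-1.78 to 0.98). Each sample held at least 61485556 counts; the part of depth, sample number and cell mixture in these changes was not tested.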
